A study of Mus musculus with 6 samples.

Results

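The 42 genes described here encode the enzymes of glycolysis and of glycogen synthesis and breakdown, together with the subunits of phosphorylase kinase and the enzymes that set the level of fructose 2,6-bisphosphate. They were picked by gene symbol from the 47729 genes quantified in brown adipose tissue (BAT) of mice. No expression value entered the rule, but earlier results of these data were known when the members were chosen. Of these members, 6 are the isoforms called muscle isoforms here (*Pfkm*, *Pgam2*, *Eno3*, *Pygm*, *Phka1* and *Phkg1*), and 36 are other isoforms or single-isoform enzymes. The 36 include forms that muscle also uses, such as *Hk2*, *Aldoa*, *Gys1* and *Fbp2*.

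BAT was taken from 3 high-fat diet (HFD)-fed and 3 low-fat diet (LFD)-fed mice, and its total RNA was sequenced after removal of ribosomal RNA. All mice were wild type males of the C57BL/6J strain, single-housed, 6 weeks old at the start and 10 weeks old after 4 weeks of feeding. The HFD-fed mice received a diet with 45% fat by its label, and the LFD-fed mice a standard rodent diet. The sequenced mice were chosen among 5 per diet to span the range of fat mass, and which number each of them carries is not said. The mice are named HFD 1 to 3 and LFD 1 to 3 by their labels.

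In glycolysis, glucose is trapped by hexokinase, committed by phosphofructokinase, and carried through aldolase, glyceraldehyde 3-phosphate dehydrogenase, phosphoglycerate mutase and enolase to pyruvate. Glycogen, the storage form of glucose, is built by glycogen synthase and taken apart by glycogen phosphorylase, which phosphorylase kinase switches on. Several of these steps are run by related enzymes encoded by separate genes, one of them favoured by skeletal muscle, others by liver, brain or most tissues. Brown adipocytes take up glucose and hold glycogen, and strips of skeletal muscle lie against the interscapular BAT.

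Between 17156991 and 21603487 rounded counts per mouse were assigned to genes, and mitochondrially encoded genes took between 3.87% and 22.7% of them. The 42 members together held 0.507% to 1.43% of a mouse's counts. *Ucp1*, the uncoupling protein that defines brown adipocytes, was present in every mouse, at 2728, 4021 and 796 TPM in HFD 1, 2 and 3 and at 443, 11.0 and 76.0 TPM in LFD 1, 2 and 3. TPM is RSEM's expression level, divided by gene length and scaled to the same total in each mouse, so that it can be compared between genes. The summed TPM of 12 skeletal muscle markers was 41.0, 185 and 8.26 in HFD 1, 2 and 3, and 5228, 12462 and 1831 in LFD 1, 2 and 3. None of these 12 markers was at 0 in any mouse. For all 12 the highest HFD-fed mouse was below the lowest LFD-fed mouse in log2 CPM, against 9.23% of all tested genes. The muscle isoforms are given beside these values further on.

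For each of the 6 muscle isoforms the 3 HFD-fed mice were below the 3 LFD-fed mice, while most of the other isoforms of the same steps overlapped between the diets. The median log2 fold change (HFD over LFD) was -3.76 over the 6 muscle isoforms, with a range from -5.68 to -1.43. It was -0.19 over the other 34 tested members, and -0.05 over all 17668 tested genes. *Pklr* and *Fbp1* had too few counts to be tested, which left 40 tested members. In bulk tissue, fewer cells of a type and less RNA per cell cannot be told apart, and the p-values measure only the spread between these mice.

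A member was called where its adjusted p was below 0.01 and its log2 fold change was beyond 1.5 in size. By this rule edgeR's quasi-likelihood test had 0 members lower and 0 members higher, as it had 0% of all tested genes in each direction. At an unadjusted p under 0.05, 6 members were lower in HFD-fed mice, against 6.62% of all tested genes, and these were the 6 muscle isoforms. At the same limit 1 member, *Hk3*, was higher, against 3.86% of all tested genes. In log2 CPM (counts scaled to the library size), 7 members lay lower in all 3 HFD-fed mice with no overlap, against 9.23% of all tested genes, namely the 6 muscle isoforms and *Pfkfb2*. With no overlap on the upper side there was 1 member, *Hk3*, against 6.72% of all tested genes. With its default settings and the same thresholds, DESeq2 called 3 members lower (*Pgam2*, *Eno3* and *Pygm*), where it called 1.53% of the genes it tested lower, and 0 members higher, where it called 0.531%.

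Same-numbered mice of the 2 diets varied together across genes, but no source says that they were paired. The pairing was inferred from these same data, and every p-value given with the replicate block rests on it. With the replicate number as a block in the fit, edgeR's test again called 0 members. The smallest adjusted p in that fit was 0.0102, for *Pygm*. At an unadjusted p under 0.05 the blocked fit had 8 members lower, against 8.76% of all tested genes, and these were the 6 muscle isoforms with *Pygb* and *Phkb*. The members higher in the blocked fit numbered 6 (*Hk1*, *Hk3*, *Pfkp*, *Pgk1*, *Ldhb* and *Fbp2*), against 8.75% of all tested genes. The number of higher members also rested on single libraries. Without LFD 1 there were 10 (*Hk3*, *Gpi1*, *Pfkl*, *Pfkp*, *Pgk1*, *Pgam1*, *Eno1*, *Pkm*, *Ldhb* and *Fbp2*), against 5.98% of all tested genes. Without LFD 2 there were 0, against 2.57%, and without LFD 3 there were 3 (*Hk1*, *Hk3* and *Pgm1*), against 7.69%. Without HFD 3 there was 1, against 2.16%, and it was *Fbp2*, not *Hk3*. The number of lower members was 10 without LFD 3, against 9.36% of all tested genes, and *Pfkfb1*, *Pygb*, *Phka2* and *Phkb* joined the muscle isoforms there. It was 6 without HFD 2 (3.83% of all tested genes) or LFD 1 (8.23%). It was 5 without HFD 1 (5.75%), HFD 3 (3.75%) or LFD 2 (4.52%), and *Phkg1* was the muscle isoform missing there.

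**Figure D1:**
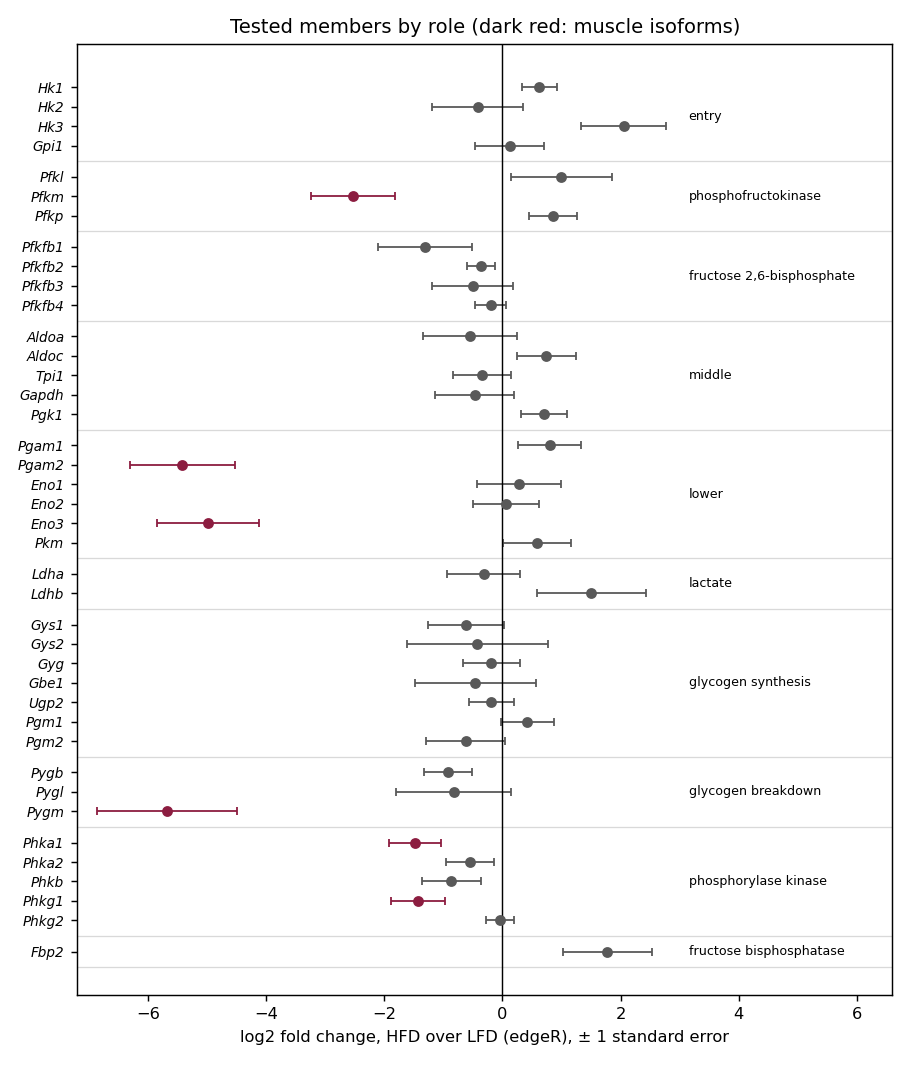
Log2 fold change of the 40 tested members, HFD over LFD, from edgeR's quasi-likelihood fit, with bars of 1 standard error, grouped by role. The 6 muscle isoforms (dark red) lie between -5.68 and -1.43, and the other 34 members (grey) between -1.31 and 2.05.

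The sequences just before the transcription start are shown for 3 of the muscle isoforms with the lowest fold changes and for *Pgam1*, the partner of *Pgam2* in most tissues. They are the 250 bases upstream of the RefSeq start in the GRCm38.p6 build, read 5′ to 3′ on the strand of the gene. The windows are chr11:5803797-5804046 on the minus strand for *Pgam2*, chr19:41911621-41911870 on the plus strand for *Pgam1*, chr19:6384158-6384407 on the plus strand for *Pygm*, and chr11:70656926-70657175 on the plus strand for *Eno3*. Capitals mark the E-box CANNTG, the letters that myogenic basic helix-loop-helix factors recognise, and in *Pgam2* also a match to the MEF2 motif.
Pgam2: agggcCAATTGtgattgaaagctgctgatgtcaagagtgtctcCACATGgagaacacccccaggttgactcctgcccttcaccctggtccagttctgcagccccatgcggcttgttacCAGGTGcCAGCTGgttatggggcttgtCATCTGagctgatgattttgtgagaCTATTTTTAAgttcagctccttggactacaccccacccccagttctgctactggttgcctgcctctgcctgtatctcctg
Pgam1: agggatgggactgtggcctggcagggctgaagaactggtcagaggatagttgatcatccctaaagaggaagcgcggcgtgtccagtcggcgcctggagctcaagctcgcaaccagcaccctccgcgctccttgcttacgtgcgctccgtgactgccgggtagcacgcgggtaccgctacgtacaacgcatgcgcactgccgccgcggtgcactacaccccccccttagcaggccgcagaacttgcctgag
Pygm: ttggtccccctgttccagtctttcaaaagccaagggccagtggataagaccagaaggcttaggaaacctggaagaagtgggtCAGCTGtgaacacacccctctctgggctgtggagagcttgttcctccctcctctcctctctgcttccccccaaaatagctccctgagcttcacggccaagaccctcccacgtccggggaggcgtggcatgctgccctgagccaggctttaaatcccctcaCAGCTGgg
Eno3: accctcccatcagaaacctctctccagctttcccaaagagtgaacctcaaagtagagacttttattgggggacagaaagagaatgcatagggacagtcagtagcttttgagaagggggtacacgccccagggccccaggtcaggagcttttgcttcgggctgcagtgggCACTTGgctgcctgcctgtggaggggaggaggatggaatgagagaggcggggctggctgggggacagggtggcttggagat

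The *Pgam2* window held 5 E-boxes, one of them of the form CAGCTG, and 1 MEF2 match that lay 80 bases before the start. The *Pygm* window held 2 E-boxes, both of them CAGCTG, at 168 and 8 bases before the start, and the *Eno3* window held 1 E-box. The *Pgam1* window held none of these letters. Over the 6 muscle isoforms, 6 had an E-box in at least 1 window, against 4 of the 9 other isoforms of the same pools and 66.2% of 32851 windows of RefSeq transcripts. CAGCTG, a form of the E-box, stood in windows of 3 muscle isoforms (*Pgam2*, *Pygm* and *Phka1*), of 0 of the 9 others and in 13.0% of all windows. The MEF2 motif matched in 1 muscle isoform, in 0 of the 9 others and in 2.92% of all windows. These percentages count single windows, whereas a gene was counted where any of its windows matched, and *Pfkm* and *Eno1* had several windows. The counts of genes and the percentages are therefore not the same measure. Both strands were searched, and a match is a description of the letters, not of a bound site.

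**Figure D2:**
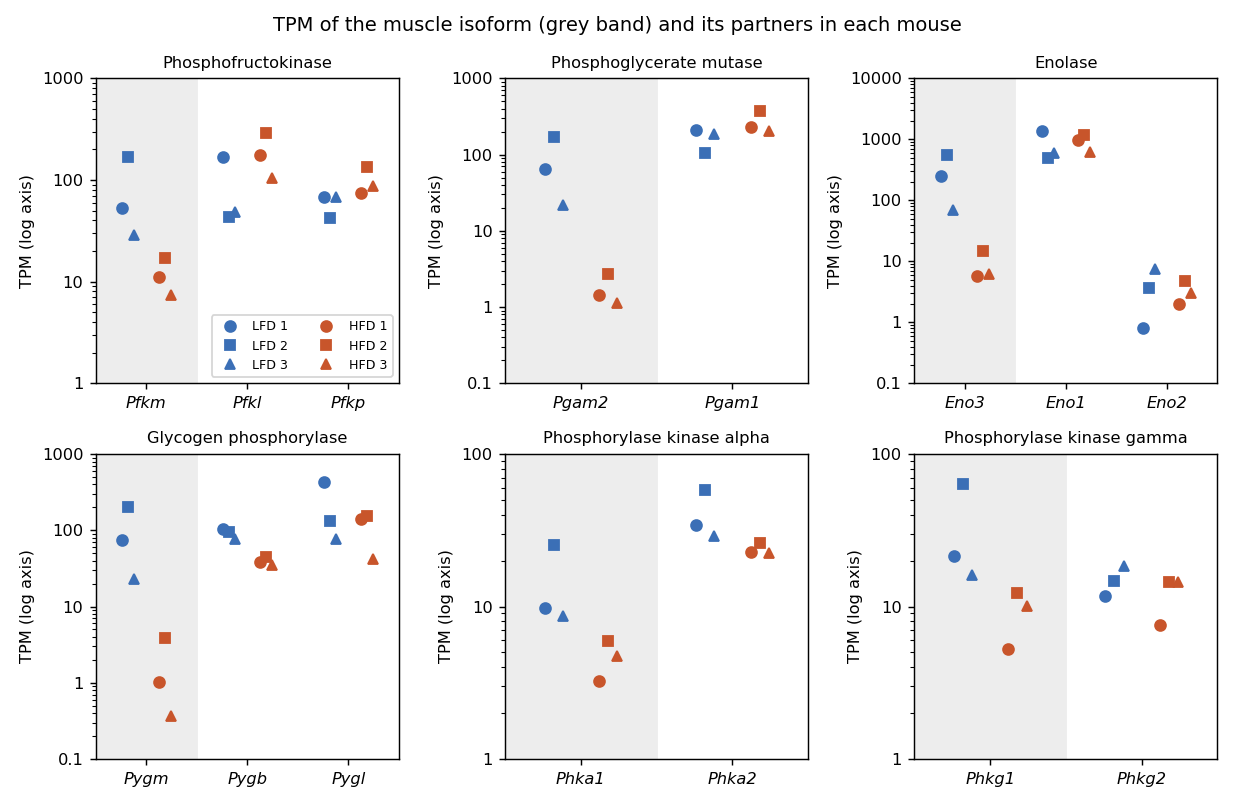
TPM on log axes in each of the 6 mice for the 6 muscle isoforms (grey band) and the other isoforms of the same enzyme or subunit, with LFD-fed mice in blue, HFD-fed mice in orange and the marker shape giving the replicate number. In the grey bands the 3 HFD-fed mice lie below the 3 LFD-fed mice, while among the partners only *Pfkp* (above), *Pygb* and *Phka2* (below) do not overlap.

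Hexokinases add the first phosphate to glucose. *Hk2* (chromosome 6), the insulin-responsive form of muscle and fat, had the highest mean level of the 3 in both diets, with 72.4, 73.8 and 38.0 TPM in HFD 1, 2 and 3 and 144, 79.8 and 35.5 TPM in LFD 1, 2 and 3. The ranges overlapped, and LFD 1 alone stood above the rest. *Hk1*, the widely expressed form, was between 17.9 and 38.2 TPM in HFD-fed and between 14.1 and 41.0 TPM in LFD-fed mice, with a log2 fold change of 0.63 ± 0.30 (SE, adjusted p = 0.537 with edgeR's quasi-likelihood test). *Gpi1*, which turns glucose 6-phosphate into fructose 6-phosphate, was between 235 and 488 TPM over all mice, with a log2 fold change of 0.12.

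*Hk3* (ENSMUSG00000025877, chr13:55005985-55021385), the hexokinase best known from myeloid cells, was the 1 member higher at an unadjusted p under 0.05. Its TPM was 9.87, 23.0 and 52.2 in HFD 1, 2 and 3, and 1.20, 8.21 and 15.6 in LFD 1, 2 and 3. Each HFD-fed mouse was above the LFD-fed mouse of the same number, the TPM ranges overlapped (HFD 1 was below LFD 3), and the log2 CPM ranges did not. The log2 fold change was 2.05 ± 0.72 (SE), with an unadjusted p of 0.0256 and an adjusted p of 0.394 with edgeR's quasi-likelihood test. Of 12 macrophage and myeloid markers, 3 were higher (*Adgre1*, *Cd68* and *Fcgr1*) and 1 was lower (*Cd163*) at the same unadjusted limit. Of all tested genes, 3.86% were higher and 6.62% lower. The median log2 fold change of the 12 markers was 0.49. None of them was at 0 in any mouse, and their part in the *Hk3* difference was not tested. The summed TPM of these 12 markers was 1864, 2345 and 3929 in HFD 1, 2 and 3 and 587, 2562 and 4370 in LFD 1, 2 and 3. In both diets mouse 1 had the lowest and mouse 3 the highest value, for *Hk3* as for the summed markers.

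Phosphofructokinase commits fructose 6-phosphate to glycolysis. *Pfkm*, the muscle subunit (ENSMUSG00000033065, chr15:98092589-98132451), was at 11.0, 17.0 and 7.32 TPM in HFD 1, 2 and 3 and at 52.8, 167 and 29.0 TPM in LFD 1, 2 and 3. The diets did not overlap, LFD 2 stood highest, and the mean TPM was 7.03 times as high in LFD-fed as in HFD-fed mice. The log2 fold change was -2.53 ± 0.71 (SE), with an adjusted p of 0.287 with edgeR's quasi-likelihood test.

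*Pfkl*, the liver subunit, was at 178, 289 and 105 TPM in HFD 1, 2 and 3 and at 167, 43.4 and 48.3 TPM in LFD 1, 2 and 3. Only LFD 1 lay within the range of the HFD-fed mice. *Pfkp*, the platelet subunit, was at 74.9, 136 and 86.9 TPM in HFD 1, 2 and 3 and at 68.6, 42.02 and 68.4 TPM in LFD 1, 2 and 3. In TPM the HFD-fed mice were all above the LFD-fed mice for *Pfkp*, although by little in HFD 1. The log2 fold changes of *Pfkl* and *Pfkp* were 1.00 ± 0.85 and 0.86 ± 0.40 (SE), with adjusted p = 0.782 and 0.524 with edgeR's test. In LFD 2 *Pfkm* made up 66.1% of the summed phosphofructokinase TPM, and in the 3 HFD-fed mice it made up between 3.68% and 4.18%.

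The bifunctional enzymes of the *Pfkfb* genes make and break fructose 2,6-bisphosphate, the activator of phosphofructokinase. All 4 had negative log2 fold changes, between -1.31 (*Pfkfb1*) and -0.20 (*Pfkfb4*), and the adjusted p was 0.642 or higher with edgeR's quasi-likelihood test. Of the 17668 tested genes, 9605 were negative, and without LFD 1 *Pfkfb3* was at 0.08. *Pfkfb2* was at 4.68, 7.74 and 6.69 TPM in HFD 1, 2 and 3 and at 6.33, 12.9 and 10.2 TPM in LFD 1, 2 and 3. Its diets did not overlap in log2 CPM but overlapped in TPM, and the log2 fold change was -0.36 ± 0.24 (SE, adjusted p = 0.691). *Pfkfb1*, the form of liver and muscle, was at 11.9, 17.0 and 8.91 TPM in HFD 1, 2 and 3 and at 39.9, 45.4 and 8.06 TPM in LFD 1, 2 and 3. LFD 1 and LFD 2 were above all HFD-fed mice, and LFD 3 was below them. *Pfkfb3*, the inducible form with strong kinase activity, was the most highly expressed of the 4, at 77.0 to 153 TPM in HFD-fed and 62.7 to 236 TPM in LFD-fed mice.

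The middle steps are run by enzymes with no muscle isoform among the members, and they overlapped between the diets in log2 CPM. *Aldoa*, the aldolase of muscle and most other tissues, was among the most abundant members, at 1426, 1889 and 980.2 TPM in HFD 1, 2 and 3 and at 3504, 2094 and 847 TPM in LFD 1, 2 and 3. *Gapdh*, often used as a reference gene, was at 1057, 1289 and 864 TPM in HFD 1, 2 and 3 and at 2547, 1243 and 894 TPM in LFD 1, 2 and 3. For both genes LFD 1 stood above the other mice and the remaining LFD-fed mice lay near the HFD-fed mice. Their log2 fold changes were -0.55 ± 0.79 and -0.47 ± 0.68 (SE), both with an adjusted p of 0.893 with edgeR's test, and without LFD 1 they were 0.50 and 0.56.

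*Tpi1*, the triose phosphate isomerase, was at 314 to 495 TPM in HFD-fed and 353 to 679 TPM in LFD-fed mice (log2 fold change -0.35). *Pgk1*, the phosphoglycerate kinase that yields the first ATP of the pathway, was at 119, 157 and 133 TPM in HFD 1, 2 and 3 and at 106, 73.8 and 106 TPM in LFD 1, 2 and 3. The diets did not overlap for *Pgk1* in TPM, and the log2 fold change was 0.70 ± 0.38 (SE, adjusted p = 0.593 with edgeR's test). The assignment of reads to *Pgk1* was less certain than for the other tested members, with a posterior standard deviation of up to 6.78% of the count. *Aldoc*, the brain aldolase, was at 1.58 TPM or less in every mouse.

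Phosphoglycerate mutase and enolase held the largest differences of the glycolytic steps. *Pgam2*, the muscle phosphoglycerate mutase (ENSMUSG00000020475, chr11:5801640-5803733), was at 1.43, 2.69 and 1.13 TPM in HFD 1, 2 and 3 and at 64.3, 173 and 21.7 TPM in LFD 1, 2 and 3. Every LFD-fed mouse was well above every HFD-fed mouse, and the HFD-fed mice had 24, 33 and 15 counts. The mean TPM was 49.2 times as high in LFD-fed mice, and the log2 fold change was -5.42 ± 0.89 (SE, adjusted p = 0.170 with edgeR's test, 0.0243 with the replicate block).

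*Pgam1*, the form of most other tissues, was at 228, 379 and 204 TPM in HFD 1, 2 and 3 and at 212, 104 and 185 TPM in LFD 1, 2 and 3. HFD 2 was highest, LFD 2 was lowest, and the diets overlapped, with a log2 fold change of 0.80 ± 0.53 (SE, adjusted p = 0.691 with edgeR's test). The summed TPM of both mutases was 229.8, 381 and 205 in HFD 1, 2 and 3 and 276, 277 and 207 in LFD 1, 2 and 3, which overlapped as well.

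*Eno3*, the muscle enolase (ENSMUSG00000060600, chr11:70657202-70662513), was at 5.83, 14.5 and 6.11 TPM in HFD 1, 2 and 3 and at 254, 551 and 69.6 TPM in LFD 1, 2 and 3. The lowest LFD-fed mouse, LFD 3, was above the highest HFD-fed mouse, HFD 2. The mean TPM was 33.1 times as high in LFD-fed mice, and the log2 fold change was -4.98 ± 0.87 (SE, adjusted p = 0.170 with edgeR's test, 0.0396 with the replicate block).

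*Eno1*, the ubiquitous enolase, was at 985, 1202 and 615 TPM in HFD 1, 2 and 3 and at 1355, 488 and 603 TPM in LFD 1, 2 and 3. *Eno2*, the neuronal enolase, was at 1.98, 4.80 and 2.97 TPM in HFD 1, 2 and 3 and at 0.81, 3.59 and 7.42 TPM in LFD 1, 2 and 3. Both overlapped between the diets, with log2 fold changes of 0.27 ± 0.71 and 0.05 ± 0.56 (SE). In LFD 2 there was more *Eno3* than *Eno1*, whereas *Eno1* exceeded *Eno3* in the 5 other mice.

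Pyruvate kinase closes glycolysis, and lactate dehydrogenase interconverts pyruvate and lactate. *Pkm*, the pyruvate kinase of muscle and most other tissues, was at 519.7 to 828 TPM in HFD-fed and 309 to 599 TPM in LFD-fed mice (log2 fold change 0.58 ± 0.58, SE). *Pklr*, the liver and red cell form, had at most 2 counts in a mouse. *Ldha*, the subunit that favours lactate formation, was at 522 to 979 TPM in HFD-fed and 590.5 to 1311 TPM in LFD-fed mice (log2 fold change -0.32). *Ldhb*, the heart subunit, was at 277, 393 and 91.9 TPM in HFD 1, 2 and 3 and at 160, 73.9 and 31.9 TPM in LFD 1, 2 and 3. The diets overlapped for *Ldhb* because HFD 3 was below LFD 1, while each HFD-fed mouse was above the LFD-fed mouse of the same number. The log2 fold change was 1.51 ± 0.92 (SE, adjusted p = 0.652 with edgeR's test, 0.110 with the replicate block).

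The isoforms of *Fbp2* and *Fbp1* run fructose bisphosphatase, the reverse of the phosphofructokinase step. *Fbp2*, known as the muscle form but not counted among the 6 muscle isoforms, was at 10.7, 19.7 and 4.05 TPM in HFD 1, 2 and 3 and at 4.77, 3.91 and 2.07 TPM in LFD 1, 2 and 3. Its mean was higher in HFD-fed mice, opposite to the muscle isoforms, and only HFD 3 was within the LFD range. The log2 fold change was 1.77 ± 0.75 (SE), with an unadjusted p of 0.0509 and an adjusted p of 0.479 with edgeR's test (0.111 with the replicate block). *Fbp1*, the liver form, had at most 11 counts in a mouse.

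**Figure D3:**
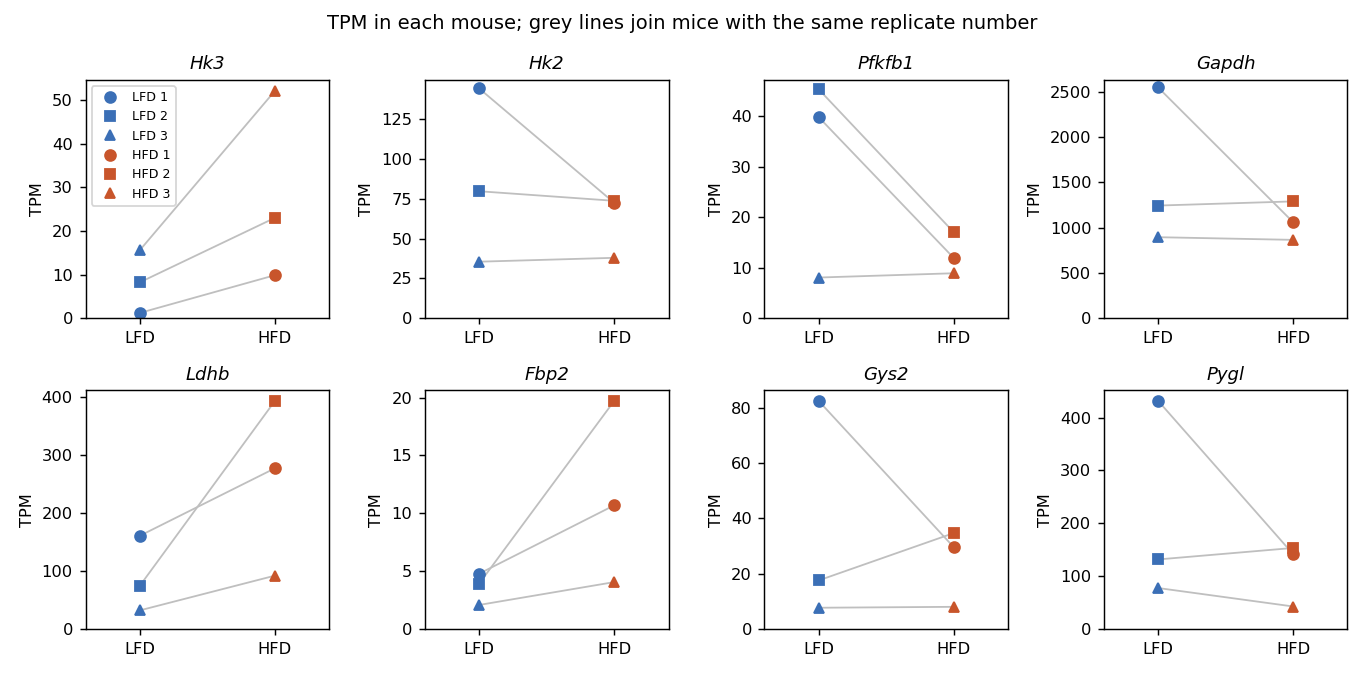
TPM in each mouse for 8 members that are not among the 6 muscle isoforms, with LFD-fed mice on the left, HFD-fed mice on the right and grey lines joining mice of the same number. *Hk3*, *Ldhb* and *Fbp2* are higher in the HFD-fed mouse of each same-numbered pair, while for *Hk2*, *Gapdh*, *Gys2* and *Pygl* LFD 1 stands above the other 5 mice.

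Of the 7 members that build glycogen, 0 were lower and 0 were higher at an unadjusted p under 0.05 with edgeR's test, against 6.62% and 3.86% of all tested genes. A negative log2 fold change was found for 6 of the 7, and for 9605 of the 17668 tested genes. Without LFD 1 these 6 were positive, at 0.08 (*Gys1*), 1.84 (*Gys2*), 0.29 (*Gyg*), 1.13 (*Gbe1*), 0.05 (*Ugp2*) and 0.14 (*Pgm2*). *Gys1*, the muscle glycogen synthase, was at 26.9, 41.3 and 18.5 TPM in HFD 1, 2 and 3 and at 62.4, 56.5 and 21.3 TPM in LFD 1, 2 and 3. *Gys2*, the liver glycogen synthase, was at 29.5, 34.7 and 7.98 TPM in HFD 1, 2 and 3 and at 82.5, 17.5 and 7.65 TPM in LFD 1, 2 and 3. Both synthases were expressed at levels of the same order in these mice, and LFD 1 was highest for both. The log2 fold change of *Gys1* was -0.61 ± 0.64 and that of *Gys2* was -0.42 ± 1.20 (SE), and *Gys2* was at 1.84 without LFD 1 and at -0.97 without LFD 3.

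*Gyg*, the glycogenin primer, *Gbe1*, the branching enzyme, and *Ugp2*, which makes UDP-glucose, had log2 fold changes of -0.19, -0.46 and -0.19. Phosphoglucomutase, which joins glycogen to glycolysis, is encoded by a pair of members whose names are exchanged between annotations. The gene named *Pgm1* in the files (ENSMUSG00000029171, chromosome 5) was at 8.61 to 18.6 TPM in HFD-fed and 3.73 to 22.3 TPM in LFD-fed mice. The gene named *Pgm2* (ENSMUSG00000025791, chromosome 4) is called *Pgm1* in a later annotation and was at 50.2 to 99.4 TPM in HFD-fed and 52.6 to 169 TPM in LFD-fed mice. Their log2 fold changes were 0.42 ± 0.45 and -0.62 ± 0.67 (SE).

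Glycogen phosphorylase releases glucose 1-phosphate from glycogen. *Pygm*, the muscle phosphorylase (ENSMUSG00000032648, chr19:6384399-6398459), was at 1.02, 3.82 and 0.37 TPM in HFD 1, 2 and 3 and at 75.0, 200.1 and 23.1 TPM in LFD 1, 2 and 3. Every HFD-fed mouse was below every LFD-fed mouse, and the counts were 62, 171 and 18 against 3712, 7717 and 755. The mean TPM was 57.2 times as high in LFD-fed mice. The log2 fold change was -5.68 ± 1.19 (SE, adjusted p = 0.177 with edgeR's test, 0.0102 with the replicate block), the most negative among the 40 tested members.

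*Pygb*, the brain phosphorylase, was at 38.3, 45.3 and 35.3 TPM in HFD 1, 2 and 3 and at 106, 94.6 and 75.9 TPM in LFD 1, 2 and 3. The diets did not overlap in TPM, the values within a diet were close, and the mean was 2.32 times as high in LFD-fed mice. In log2 CPM they overlapped, with a log2 fold change of -0.92 ± 0.41 (SE, adjusted p = 0.501 with edgeR's test, 0.138 with the replicate block).

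*Pygl*, the liver phosphorylase, was at 141, 153 and 42.4 TPM in HFD 1, 2 and 3 and at 432, 132 and 77.5 TPM in LFD 1, 2 and 3. It overlapped between the diets, with LFD 1 far above the others and a log2 fold change of -0.82 ± 0.97 (SE, adjusted p = 0.856 with edgeR's test). In the HFD-fed mice and in LFD 1 *Pygl* was the most abundant phosphorylase, in LFD 2 it was *Pygm*, and in LFD 3 *Pygl* and *Pygb* were about equal.

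Phosphorylase kinase activates glycogen phosphorylase and is built of regulatory alpha and beta subunits, a catalytic gamma subunit and calmodulin. *Phka1*, the muscle alpha subunit (ENSMUSG00000034055, chrX:102513975-102644246), was at 3.25, 5.93 and 4.76 TPM in HFD 1, 2 and 3 and at 9.84, 25.3 and 8.67 TPM in LFD 1, 2 and 3. *Phkg1*, the muscle gamma subunit (ENSMUSG00000025537, chr5:129863421-129898549), was at 5.25, 12.3 and 10.0 TPM in HFD 1, 2 and 3 and at 21.5, 63.6 and 16.0 TPM in LFD 1, 2 and 3. Neither overlapped between the diets, and LFD 2 was highest for both. For *Phkg1* the gap in log2 CPM was small, with 4.148 in HFD 2 against 4.152 in LFD 3, and it closed when no filter on low counts was used. The log2 fold changes were -1.48 ± 0.43 and -1.43 ± 0.46 (SE, adjusted p = 0.312 and 0.355 with edgeR's test), the smallest in size among the 6 muscle isoforms.

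*Phka2*, the liver alpha subunit, was at 22.9, 26.1 and 22.3 TPM in HFD 1, 2 and 3 and at 34.3, 57.9 and 29.1 TPM in LFD 1, 2 and 3. It did not overlap in TPM but overlapped in log2 CPM, with a log2 fold change of -0.55 ± 0.41 (SE, adjusted p = 0.735 with edgeR's test). *Phkg2*, the liver and testis gamma subunit, was at 7.54, 14.5 and 14.6 TPM in HFD 1, 2 and 3 and at 11.7, 14.6 and 18.3 TPM in LFD 1, 2 and 3. The values of *Phkg2* overlapped widely, with a log2 fold change of -0.03 ± 0.24 (SE). *Phkb*, the single beta subunit, was at 15.2 to 22.8 TPM in HFD-fed and 19.98 to 46.4 TPM in LFD-fed mice, with a log2 fold change of -0.86 ± 0.51 (SE, adjusted p = 0.631 with edgeR's test).

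Within each step the muscle isoform can be set against its partners in the same mouse, as a share of their summed TPM that does not depend on the scaling between libraries. The share of *Pgam2* among the mutases was 0.63% ± 0.08 with HFD and 32.0% ± 27.0 with LFD (SD, n = 3 per diet). That of *Eno3* among the enolases was 0.92% ± 0.30 and 26.3% ± 23.2. That of *Pygm* among the phosphorylases was 0.98% ± 0.79 and 24.1% ± 19.8. The LFD-fed mice spread widely in these shares, with LFD 2 the highest in each.

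The share of *Pfkm* among the phosphofructokinases was 3.90% ± 0.26 with HFD and 34.8% ± 27.2 with LFD (SD, n = 3 per diet). That of *Phka1* among the alpha subunits was 16.2% ± 3.27 and 25.2% ± 4.54. That of *Phkg1* among the gamma subunits was 42.6% ± 2.95 and 64.2% ± 17.3. In all 6 pools the 3 HFD-fed mice lay below the 3 LFD-fed mice, for *Phkg1* by little (46.0% in HFD 2 against 46.7% in LFD 3). Each two-sided exact permutation test, which ran through the 20 ways to divide the 6 mice, gave p = 0.1, the smallest that 3 mice against 3 allow, and p = 0.1 after adjustment over the 6 pools. Without LFD 2 the differences shrank, from -31.4 to -16.2 percentage points for *Pgam2*, from -25.4 to -12.1 for *Eno3* and from -30.9 to -15.2 for *Pfkm*. They went from -23.1 to -11.7 for *Pygm*, from -21.6 to -13.1 for *Phkg1* and from -9.05 to -6.43 for *Phka1*.

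**Figure D4:**
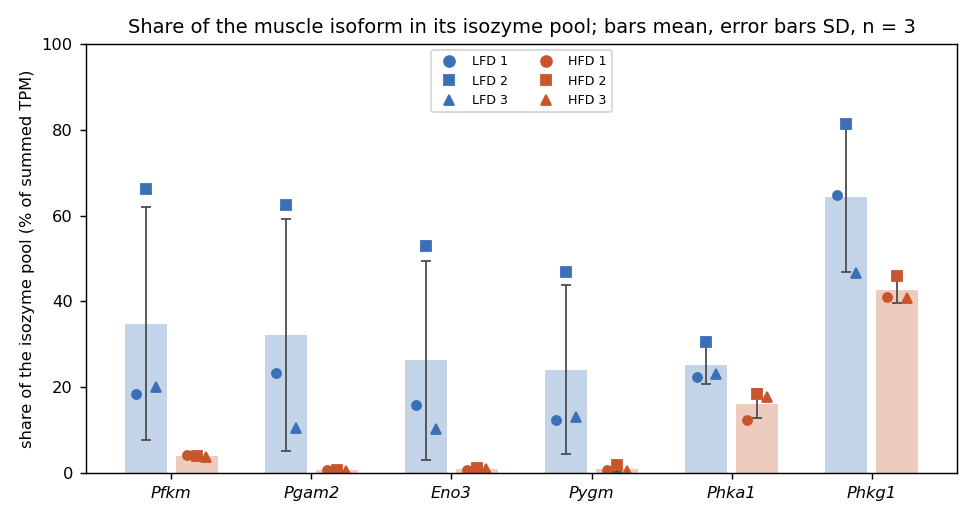
Share of each muscle isoform in the summed TPM of its isozyme pool (percent), with a point for each mouse, bars at the mean and error bars of 1 SD (n = 3 per diet). LFD-fed mice are blue and HFD-fed mice orange, and in every pool the 3 HFD-fed mice lie below the 3 LFD-fed mice, of which LFD 2 is the highest.

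The summed TPM of the other isoforms, with the muscle isoform left out, overlapped between the diets for the phosphofructokinases, mutases, enolases, phosphorylases and gamma subunits. For the phosphofructokinases it was 253, 425 and 192 in HFD 1, 2 and 3 and 236, 85.4 and 117 in LFD 1, 2 and 3. The exception was the alpha subunit of phosphorylase kinase, where the single partner *Phka2* was lower in every HFD-fed mouse. The summed TPM of the whole pool overlapped for the first 4 of these steps and was lower in every HFD-fed mouse for both subunits of phosphorylase kinase. For the gamma subunits it was at 12.8, 26.8 and 24.6 in HFD 1, 2 and 3 and at 33.2, 78.2 and 34.4 in LFD 1, 2 and 3.

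The muscle isoforms moved with the 12 skeletal muscle markers across the mice. In order of the summed marker TPM the mice were HFD 3, HFD 1, HFD 2, LFD 3, LFD 1 and LFD 2, and *Pfkm*, *Pgam2* and *Pygm* followed the same order in all 6 mice. *Eno3*, *Phka1* and *Phkg1* followed it except that HFD 1 was below HFD 3. All 12 markers (*Acta1*, *Ckm*, *Myh1*, *Myh2*, *Myh4*, *Mylpf*, *Tnnt3*, *Tnnc2*, *Tnni2*, *Neb*, *Actn3* and *Casq1*) were lower at an unadjusted p under 0.05 with edgeR's test, against 6.62% of all tested genes. The median log2 fold change of the 12 markers was -6.20. The part of skeletal muscle RNA in the differences of the muscle isoforms was not tested.

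As a percentage of the summed marker TPM, *Pgam2* was at 1.23, 1.38 and 1.19 in LFD 1, 2 and 3 and at 3.49, 1.45 and 13.7 in HFD 1, 2 and 3. *Pygm* was at 1.43, 1.61 and 1.26 in the LFD-fed and at 2.49, 2.07 and 4.48 in the HFD-fed mice, and *Eno3* at 4.86, 4.42 and 3.80 against 14.2, 7.84 and 74.0. The ratios of these 3 isoforms varied little among the LFD-fed mice and were higher in the HFD-fed mice, where the markers were low.

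*Pfkm* was at 1.01, 1.34 and 1.59 percent of the summed marker TPM in LFD 1, 2 and 3 and at 26.9, 9.18 and 88.6 percent in HFD 1, 2 and 3. *Phka1* was between 0.188 and 0.474 percent in the LFD-fed and between 3.21 and 57.6 percent in the HFD-fed mice. *Phkg1* was between 0.412 and 0.876 percent in the LFD-fed and between 6.66 and 122 percent in the HFD-fed mice. In HFD 3, where the 12 markers summed to 8.26 TPM, *Pfkm* stood at 7.32 TPM and *Phkg1* at 10.0 TPM.

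**Figure D5:**
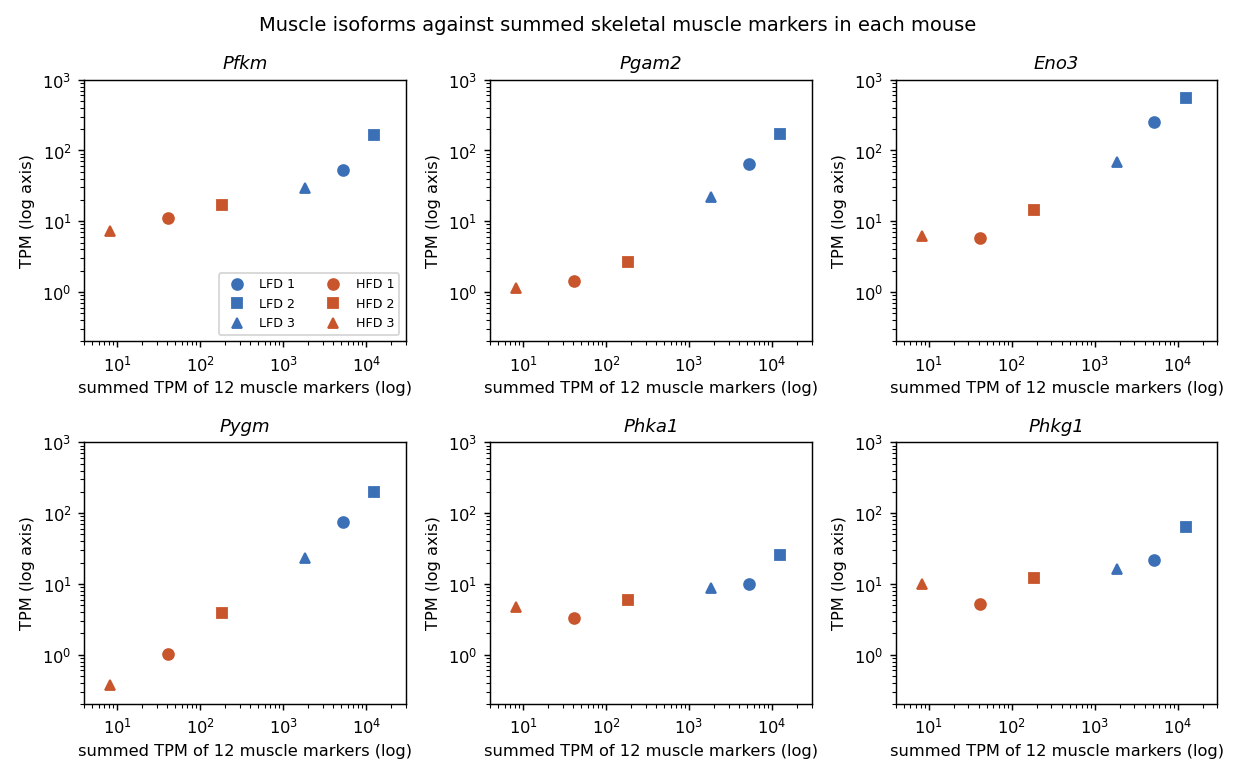
TPM of each muscle isoform (vertical log axis) against the summed TPM of 12 skeletal muscle markers (horizontal log axis), with a point for each of the 6 mice, LFD-fed in blue and HFD-fed in orange. *Pfkm*, *Pgam2* and *Pygm* have the same order as the markers in all mice, and among the HFD-fed mice, where the markers sum to between 8.26 and 185 TPM, *Pygm* spans 0.37 to 3.82 TPM and *Pgam2* 1.13 to 2.69 TPM.

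The summed brown adipocyte markers did not follow the same order. Of 12 (*Ucp1*, *Cidea*, *Elovl3*, *Dio2*, *Ppargc1a*, *Prdm16*, *Cox7a1*, *Cox8b*, *Adipoq*, *Fabp4*, *Plin1* and *Lipe*), 2 (*Dio2* and *Prdm16*) were higher in HFD-fed mice at an unadjusted p under 0.05 and 0 were lower. Of all tested genes, 3.86% were higher and 6.62% lower at this limit. The median log2 fold change of the 12 markers was 1.35, and their summed TPM was 11938, 13724 and 6310 in HFD 1, 2 and 3 and 13884, 11345 and 3719 in LFD 1, 2 and 3. The list holds 8 genes selective for brown fat and 4 general adipocyte genes (*Adipoq*, *Fabp4*, *Plin1* and *Lipe*), a division made after the values were seen. As the division followed the values, the contrast between its 2 parts is a description only. The 8 brown-selective genes had a median log2 fold change of 1.98. Their summed TPM was 5906, 7237 and 1811 in HFD 1, 2 and 3 and 2025, 557 and 292 in LFD 1, 2 and 3. The 4 general genes had negative log2 fold changes, with a median of -0.79. In both diets mouse 3 had the lowest sum of the 12. In TPM, mouse 3 was also the lowest of its diet for *Aldoa*, *Gapdh*, *Gys1*, *Gys2*, *Pygl* and *Ldhb*, among other members. Members also went the other way, with mouse 3 the highest of its diet for *Hk1*, *Hk3*, *Pfkfb4*, *Aldoc*, *Pgm1* and *Phkg2*. Whether the makeup of the tissue sample bears on these members was not tested.

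Among 34 other genes of the same pathways, 27 were tested and 0 were called by edgeR's test. At an unadjusted p under 0.05, 1 was lower and 0 were higher, against 6.62% and 3.86% of all tested genes. The lower gene was *Ppp1r3a*, which targets protein phosphatase 1 to glycogen in skeletal muscle. It was at 0.15, 0.35 and 0.01 TPM in HFD 1, 2 and 3 and at 4.42, 26.1 and 3.11 TPM in LFD 1, 2 and 3. Its diets did not overlap, with a log2 fold change of -5.72 ± 1.29 (SE, adjusted p = 0.195 with edgeR's test), close to that of *Pygm*, and DESeq2 called it lower. The 5 other tested glycogen-targeting subunits were mixed, with log2 fold changes of 0.71 for *Ppp1r3b*, 0.14 for *Ppp1r3c*, 0.77 for *Ppp1r3d*, -0.87 for *Ppp1r3e* and -0.99 for *Ppp1r3f*. In TPM the HFD-fed mice all lay below the LFD-fed mice for *Ppp1r3e* and *Ppp1r3f*, as did 11.6% of all genes on the log2(TPM + 1) scale. *Ppp1r3f* was at 0.93 TPM or less in every mouse. Of the 27 tested genes of the whole list, 3 lay lower and 0 higher with no overlap in log2 CPM, against 9.23% and 6.72% of all tested genes. *Pck1*, the phosphoenolpyruvate carboxykinase of gluconeogenesis and glyceroneogenesis, had a log2 fold change of -0.03 ± 0.79 (SE).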

How the data were processed

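RNA from BAT of 3 HFD-fed and 3 LFD-fed mice was sequenced in single-end reads by the authors, who trimmed adapters with Trimmomatic 0.36 and quantified genes with RSEM 1.3.0 on GRCm38.p4 and Ensembl 84 gene models. The values deposited by the authors are expected counts, which divide a read between the genes it matches and are not normalized, and TPM values, which are scaled by effective gene length. They also deposited a posterior standard deviation of each count, used here only to see how far reads are shared. The submitters' processing notes also name DESeq2 1.10.1, the tool of the authors' own comparison, which was not used here.

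Expected counts were rounded to whole numbers (17156991 to 21603487 per mouse). All genes passing edgeR's filter on low counts were compared between diets by edgeR 4.0.16 in R 4.3.3 (quasi-likelihood F test, TMM, Benjamini-Hochberg adjustment over 17668 genes). The call required an adjusted p below 0.01 and a log2 fold change beyond 1.5 in size. Standard errors were the fold change divided by the square root of F. Log2 CPM used a prior count of 2. Genes with few counts in a diet carry counting error beyond the spread between mice. The scripts were tested on simulated data.

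Mice were grouped by diet, from their labels. Replicate numbers in the labels run from 1 to 3 in each diet, and they were taken to pair the mice because the deviations from the diet means correlated in each same-numbered pair (r = 0.498, 0.229 and 0.522 across genes, which are not independent replicates). The other pairs had r between -0.528 and 0.0532. No source states that same-numbered mice were matched, so the blocked fit rests on a pairing inferred from the same data. No pair of mice of a diet was a repeated library (chi-square per degree of freedom 77.6 to 602).

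The members, the lists of markers and of other pathway genes, and the choice of tests were made with earlier results of these data known. Values in every mouse were given for the muscle isoforms, their partners, and members at an unadjusted p under 0.05 or with no overlap in log2 CPM, and for some others chosen after their values were seen. Of the other pathway genes, the rule named those at an unadjusted p under 0.05, the others named were picked afterwards, and a result for 1 gene of that list is not reported here. Alternatives were DESeq2 1.42.0, RLE size factors, no filter, at least 10 counts in each mouse, mitochondrial and ribosomal RNA genes left out, limma 3.58.1 on log2(TPM + 1), the replicate block, and each mouse left out. For isozyme shares they were shares of counts and log2 ratios with 0.1 TPM added. Positions come from GENCODE M21 of GRCm38 and upstream sequences from RefSeq (GRCm38.p6). All 15 genes of the 6 pools had at least 1 window.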

Additional observations from a re-analysis of the deposited data

How the results depend on the processing

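Direction is counted here only for the 11 members whose log2 fold change was more than 2 standard errors from 0, and none of these reversed under any alternative run. The other 29 members changed sign 29 times over the alternatives. The groups of 3 are small, no member passed both thresholds with edgeR's test, and DESeq2, whose calls on these counts were more numerous, called 3 members lower, *Pgam2*, *Eno3* and *Pygm* (log2 fold changes of -5.41, -4.98 and -5.68). The number of members higher at an unadjusted p under 0.05, 1 in the report, was 2 (*Hk3* and *Fbp2*) with DESeq2, with a minimum of 10 counts in every mouse and with no filter on low counts, where 3.49%, 3.51% and 3.27% of all genes did the same. It was 6 with the replicate block (8.75% of all genes), and with limma on log2(TPM + 1) the 1 such member was *Fbp2*, not *Hk3* (1.48%). On the log2(TPM + 1) scale 2 members, *Pfkp* and *Pgk1*, lay higher with no overlap in place of *Hk3* (1.65% of all genes). With no filter *Phkg1* left the members with no overlap. No member passed both thresholds under the block, which moved the lower members at an unadjusted p from 6 to 8, and an exact sign-flip permutation test of the isozyme shares over 3 pairs cannot go below p = 0.25.

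Leaving out 1 mouse at a time, the members higher at an unadjusted p under 0.05 numbered 0 to 10 and those lower 5 to 10. With no overlap there were 1 to 10 higher members, with 10 without LFD 1 (13.9% of all genes), 7 without HFD 3 (9.65%), 3 without HFD 1 (13.3%) and 3 without LFD 3 (16.9%). There was 1 without HFD 2 (8.04%) and 1 without LFD 2 (9.79%). There were 7 to 14 lower members with no overlap, with 14 without LFD 3 (18.1%) and 8 without HFD 1 (14.1%). The number was 7 without HFD 2 (11.5%), HFD 3 (11.9%), LFD 1 (17.6%) or LFD 2 (12.9%). The median log2 fold change of the muscle isoforms was between -4.23 and -3.15, and that of the other members between -0.42 (without LFD 3) and 0.47 (without LFD 1). The cause of these shifts was not tested. Shares computed from counts in place of TPM kept their direction in all 6 pools.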
